A study of Rattus norvegicus with 3 samples.

Results

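The comparison described here set the RNA of blood mononuclear cells from rats made to run downhill against that of control rats, on 1 array a side. The members are the genes named alone by a probe set whose brighter value on the 2 arrays reached an intensity of 353.24, the median of all gene values. They number 7264 of the 13893 genes on the array. Where several probe sets named a gene, the brightest stood for it.

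The study asked how uphill and downhill treadmill exercise alter the transcripts of these cells in young rats. All 3 groups were male Sprague-Dawley (SD) rats of 2 months, and they differed by treatment: control, downhill running or uphill running. RNA of peripheral blood mononuclear cells was hybridised to Affymetrix Rat Expression Array 230 2.0 arrays, 1 for each group. How many rats stood behind an array, how blood was pooled, how long the rats ran and when blood was taken are not stated in the labels, so each value below compares these arrays and not the treatments. With no replicate there is no test, no error and no p-value, and a difference is described by its size and by how far it lies from that of the other genes.

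Downhill running lengthens active muscle as it brakes the body, a form of work known for soreness and for leukocyte entry into muscle. Blood mononuclear cells are the lymphocytes and monocytes left after granulocytes and red cells are removed. Monocytes carry receptors and enzymes for taking up and degrading microbes and debris, and can leave the blood to become tissue macrophages.

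The markers of mononuclear cells were present on both arrays. All 11 B cell markers, 15 of 16 T cell markers and 6 of 7 natural killer cell markers on the array were called present on control and again on downhill. Monocyte markers called present numbered 11 of 14 on control and 12 on downhill, and Cd163 and Ms4a7 of that list were called present on no array. Genes of other cells were there as well, with 10 of 10 platelet markers present on both arrays and 9 of 11 neutrophil markers present on control. Skeletal muscle markers were mostly absent, with 3 of 12 present on control and 1 on downhill, and Acta1, Mb and Pvalb were called present on no array. In a bulk sample fewer cells of a type and less RNA per cell cannot be told apart.

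Median intensity was 228.74 on control and 219.29 on downhill, with present calls on 53.7% and 52.4% of probe sets. The 3′ to 5′ ratio of the actin probe sets was 2.39 on control and 2.87 on downhill, and that of Gapdh was nearly equal on both. Spike-in transcripts, added to check labelling and hybridisation, had median log2 differences of 0.27 (E. coli), -0.20 (B. subtilis) and 0.09 (phage P1) between downhill and control. Another probe set of the same gene, available for 1270 genes, gave a log2 difference that lay a median of 0.15 away.

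Most genes hardly differed between the arrays. The median log2 difference, downhill minus control, was -0.0051, and the central 90% of genes lay between -0.46 and 0.49. On downhill 60 genes, which is 0.826% of those compared, were higher than on control by 2-fold or more, and 20 genes, or 0.275%, were lower by 2-fold or more, together 80 genes or 1.1%. At 1.5-fold the counts were 242 higher (3.33%) and 172 lower (2.37%), together 414 or 5.7%. By any amount, 49.3% of genes were higher and 50.7% lower. The plot of all genes shows the higher set spread over dim and bright genes. Below, a value given alone for a gene or a list is its log2 difference, downhill minus control, and a set of 3 values gives the intensity on each array.

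**Figure D1:**
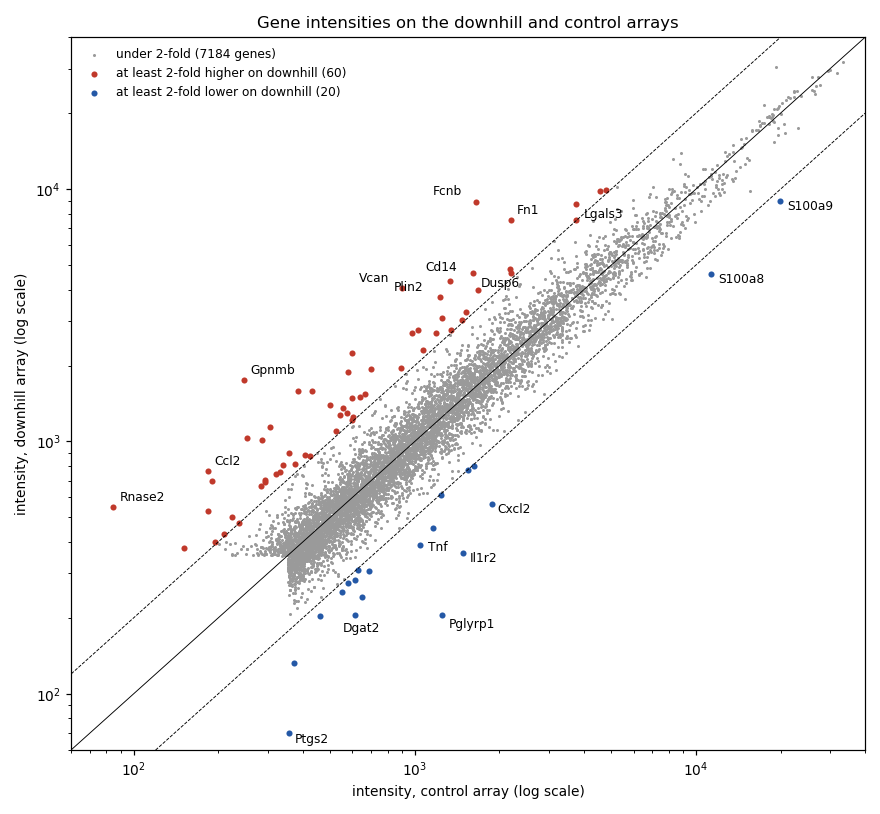
Intensity of each of 7264 genes on the control array (horizontal, log scale) and the downhill array (vertical, log scale), with lines at equality and at 2-fold. The 60 genes at least 2-fold higher on downhill (red) outnumber the 20 lower ones (blue), and S100a8 and S100a9 stand apart at high intensity.

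By the annotated place of the protein, genes of the extracellular space differed most often in both directions. Of 279 such genes, 15.4% were 1.5-fold higher or more and 9.32% were 1.5-fold lower or more, and they made up 18 of the 60 and 14 of the 20 genes that differed 2-fold. Lysosomal genes leaned upward, with 11.3% of 142 at least 1.5-fold higher and 2.82% lower. Mitochondrial genes were shifted upward by small amounts, since 63.7% of 859 were higher by any amount, against 49.3% of all genes, while 3.61% were 1.5-fold higher. Cytoskeletal and plasma membrane genes leaned the other way, with 41.2% of 313 and 43.4% of 859 higher. Nuclear genes, 2167 in number, had a median log2 difference of -0.0076.

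The 80 genes that differed 2-fold were mostly called present on both arrays, 57 of the 60 and 17 of the 20. The plot of these genes gives their values on all 3 arrays. Uphill values are set beside the others as values only, since both runs share the control array. For 11 of the 60 genes another probe set was bright enough to compare, and for 8 of them all others differed at least 1.5-fold in the same direction. Anxa3, Ms4a6a and Smad7 were the exceptions, with other probe sets at -0.48, 0.32 and 0.18. On the lower side, another probe set was available for 3 of the 20 genes and differed likewise only for Dgat2 (-1.39), not for Tnf (-0.12) or Cdk12 (-0.031). For 9 of the 80 genes there was also a probe set below the floor on both arrays, which differed likewise for Cttnbp2nl (1.75) and Mmp9 (-1.45) and lay between -0.48 (Frmd4b) and 0.26 (Thbd) for the others.

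**Figure D2:**
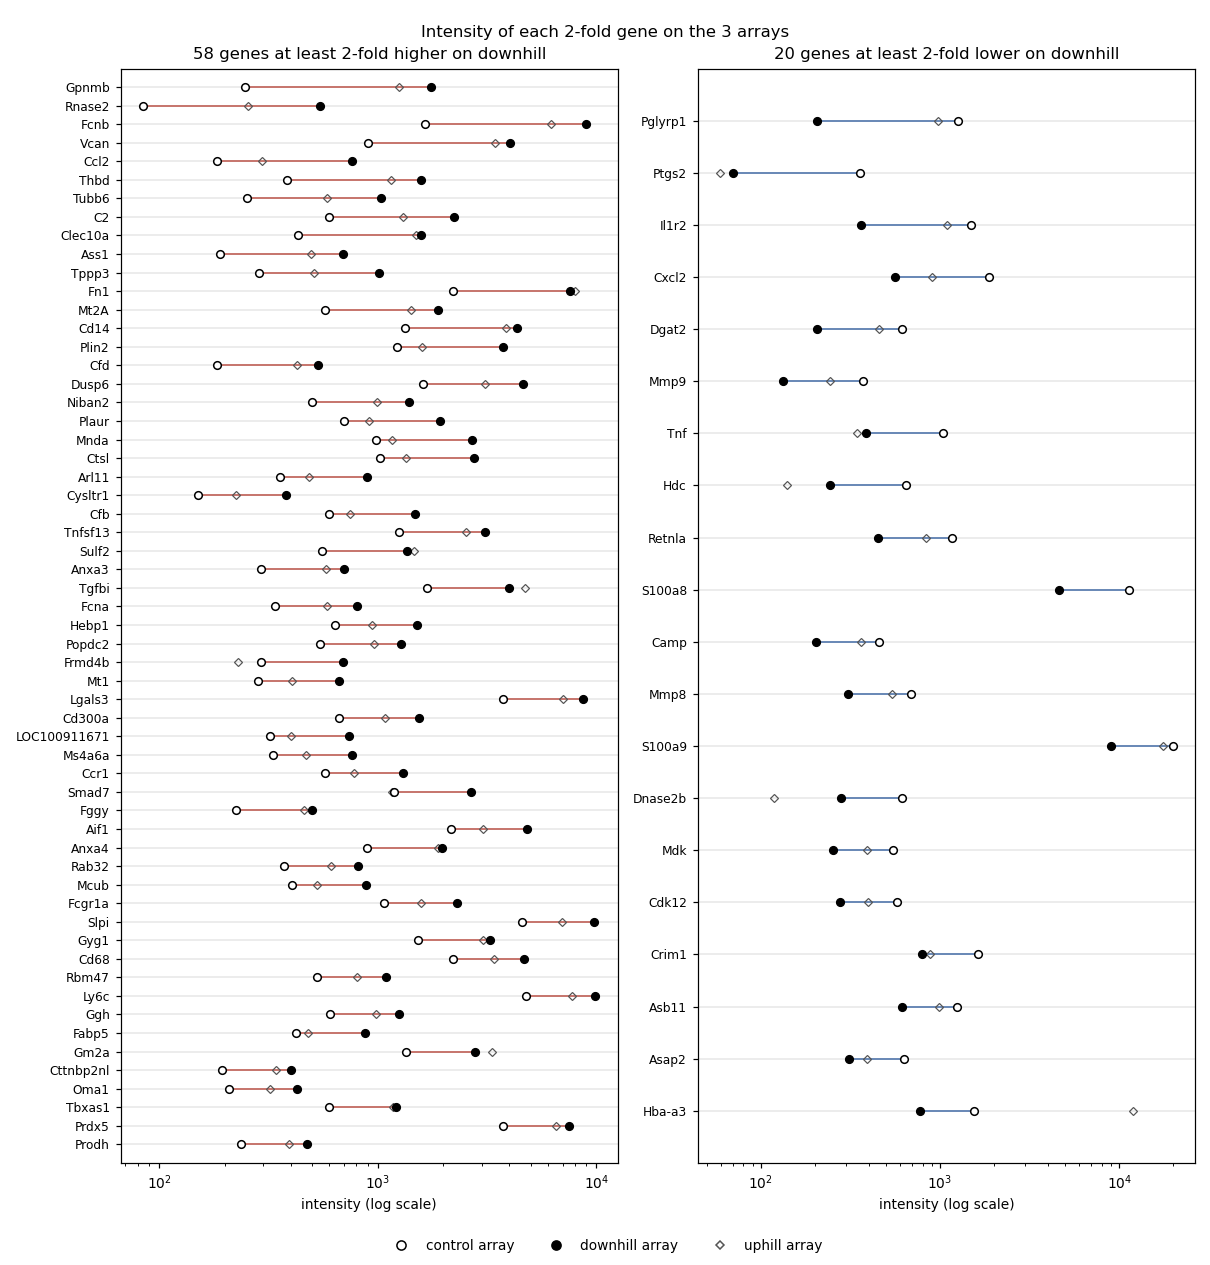
Intensity (log scale) on the control array (open circle), downhill array (filled circle) and uphill array (diamond) of 58 of the 60 genes at least 2-fold higher on downhill (left) and of the 20 at least 2-fold lower (right), in order of the difference. Fn1 and Tgfbi have uphill values above their downhill ones, and for S100a8 and S100a9 the uphill value lies near control.

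Marker genes were read first, since each family below is carried by some cell types more than others. The 10 counted monocyte markers had a median of 0.86 and summed to 34549.8 on control, 54707 on downhill and 53874 on uphill, but Itgam (-0.12), Spn (-0.011) and Adgre1 (0.20) differed little and Csf1r was at 0.42. Neutrophil markers were lower and are given with the granulocyte genes below. The part of cell numbers in the results on lectins, complement, lysosomes and granule proteins was not tested. Lymphocyte markers were near level. T cell markers had a median of -0.096 over 14 and B cell markers -0.16 over 10. In either list 0 differed 1.5-fold, against 5.7% of all genes compared. Natural killer markers had a median of 0.27, from Klrd1 at -0.00080 and Ncr1 at 0.014 to Il2rb at 0.45. The 15 cytotoxic granule genes had a median of 0.11, with 11 higher and 4 lower, from Stx11 at -0.39 to the protease inhibitor Cst7 at 0.73, the 1 member that differed 1.5-fold. All 10 platelet markers were lower, with a median of -0.31, and all 6 erythroid markers counted were lower, with a median of -0.38. Platelet sums were 105571, 89363 and 99101 on control, downhill and uphill.

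Recognition and uptake genes of phagocytes leaned higher on downhill, and among them was the family with the largest upward median. C-type lectins, galectins and ficolins, which bind sugars on microbes and cells, had a median log2 difference of 0.61 over 19 members. Of these 10 were at least 1.5-fold higher and 1 lower, and the median on uphill against control was 0.15. Fcnb, a ficolin that starts the lectin route of complement, measured 1648 on control, 8932 on downhill and 6178 on uphill, and was 5.42-fold higher on downhill than on control. Clec10a, a macrophage receptor for galactose-type sugars, measured 431 on control, 1586 on downhill and 1496 on uphill. The second ficolin, Fcna, followed with 339 on control, 808 on downhill and 585 on uphill. All 3 were lowest on the control array. Galectin-3, encoded by Lgals3, was 2.33-fold higher (3743 on control, 8731 on downhill and 7025 on uphill), and the collectin Colec12 (0.97), Clec4a3 (0.95), Clec4a1 (0.85), Cd302 (0.74), Clec12a (0.64) and the fungal glucan receptor Clec7a (0.61) lay between 0.61 and 0.97 on the log2 scale. Clec4f, a lectin known from liver macrophages, was the member lower by more than 1.5-fold (-0.90).

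Scavenger and phagocytic receptors had a median of 0.40 over 10 members (0.33 on uphill against control). Of these, 5 were at least 1.5-fold higher and 0 lower on downhill. Gpnmb, a glycoprotein of phagocyte lysosomes, had the largest difference of any gene compared. Its intensity was 248 on control, 1755 on downhill and 1258 on uphill, and it was 7.09-fold higher than control on downhill. On the Rnor3.4 assembly it aligned to chromosome 4 (77161352 to 77182624, plus strand). Cd68, a lysosomal membrane glycoprotein used to mark macrophages, measured 2204 on control, 4648 on downhill and 3419.5 on uphill. The lipoprotein and debris receptor Lrp1 (0.91), the fatty acid and debris receptor Cd36 (0.69) and the signalling adaptor Tyrobp (0.59) were also 1.5-fold higher. The receptor Axl, which with its ligand Gas6 clears dying cells, did not follow, at -0.33 and -0.11.

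Complement genes leaned the same way, with 10 of 12 higher and a median of 0.23 (0.40 for the same genes on uphill against control). The excess lay in the proteases that build the convertases and in the alternative route. C2, the protease of the classical convertase, measured 596 on control, 2239.6 on downhill and 1303 on uphill, or 3.76-fold higher. Cfb, its counterpart in the alternative convertase, measured 600.1 on control, 1480.1 on downhill and 746 on uphill, and Cfd, which cuts factor B, measured 184 on control, 532 on downhill and 426 on uphill. The alternative route's stabiliser Cfp was at 0.81. Members that act on the cell surface differed little, among them the anaphylatoxin receptors C5ar1 (0.26) and C3ar1, named after its value was seen (-0.060). C3 itself, the central component, was at 0.13.

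Of 6 antibody receptor genes, 3 were higher and 3 lower on downhill, with a median of 0.045 and 1 at 1.5-fold or more. That was Fcgr1a, the high-affinity IgG receptor of monocytes, which measured 1071 on control, 2303 on downhill and 1584 on uphill. Fcgr3a was at 0.54 and Fcer1g, the signalling chain of several such receptors, at 0.14. The lymphocyte receptors Fcmr and Fcer2 were at -0.30 and -0.31. Of 13 Toll-like receptor genes, 3 were at least 1.5-fold higher and none 1.5-fold lower. These were Cd14, which hands endotoxin to its receptor (1330.0 on control, 4341 on downhill and 3844 on uphill), its partner Ly96 (0.79) and Unc93b1, which carries nucleic acid sensing receptors to endosomes (0.81). The receptors themselves were higher by less, with Tlr7 at 0.52, Tlr2 at 0.43, Tlr1 at 0.34 and Tlr8 at 0.28. The relay genes Myd88 (0.028), Irak2 (-0.23), Traf6 (-0.16) and Irak3 (-0.16) were near or below 0. The 7 genes of the oxidase that makes superoxide were level by their median of 0.011, with 4 higher and 3 lower. Ncf4 (0.70) and Cyba (0.65) passed 1.5-fold and Cybb was at 0.45, while Rac2 and Rac1 were at 0.011 and -0.019, Ncf1 at -0.26 and the proton channel Hvcn1 at -0.30.

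All 11 genes of MHC class II presentation were higher on downhill, with a median of 0.22 (0.38 for the same genes on uphill against control). Yet the parts of the pathway differed in size. The thiol reductase Ifi30 (0.80) and the protease Ctss (0.56), which prepare antigen in endosomes, and the peptide editors RT1-DMb (0.52) and RT1-DMa (0.39) led the list. Of the presenting chains counted, RT1-Ba was at 0.24, RT1-Db1 at 0.19 and RT1-Da at 0.068. The chain RT1-Bb shares its row with LOC688090 and so lies outside these counts, and that row measured 44.96 on control, 2871 on downhill and 2894 on uphill. Cd74, the invariant chain, was at 0.0080. Class I presentation had a median of 0.057, with the peptide pump genes Tap2 (-0.36) and Tap1 (-0.30) at its lower end.

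The lysosome, where material taken up is degraded, was higher in part. Of 45 hydrolases and membrane proteins, 34 were higher, 9 by at least 1.5-fold and 0 were lower by as much. Their median was 0.22, and on uphill against control it was 0.29. The cysteine protease Ctsl measured 1026 on control, 2757 on downhill and 1354 on uphill, 2.69-fold higher than control. A second row with no symbol that overlaps Ctsl gave nearly the same difference, 1.42 against 1.43. Gm2a, the cofactor that lifts ganglioside GM2 to its hydrolase, measured 1347 on control, 2777 on downhill and 3320.4 on uphill. The proteases Ctsz (0.84), Lgmn (0.64), Tpp1 (0.62) and Ctsh (0.61) and the sterol carrier Npc2 (0.82) followed. Not every hydrolase did so, since the sialidase Neu1 was at -0.34 and the aspartic protease Ctsd at -0.10. The V-ATPase, the pump that acidifies lysosomes, had 14 of 17 subunits higher and a median of 0.25. Its soluble V1 part held the largest differences, Atp6v1b2 (0.70), Atp6v1d (0.49) and Atp6v1g1 (0.41), while the membrane subunits Atp6v0a1 (-0.38) and Atp6v0e1 (-0.20) were lower.

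Lysosomal genes are known targets of the TFEB and MITF family, which bind the E-box CACGTG, a palindrome that reads alike on both strands. The promoter of Lamp1, the list's member with the most copies of the motif, is shown with each copy in capitals. It covers the 250 bases before the start of the gene in RefSeq on GRCr8, chr16:83075064-83075313 on the minus strand.
Lamp1: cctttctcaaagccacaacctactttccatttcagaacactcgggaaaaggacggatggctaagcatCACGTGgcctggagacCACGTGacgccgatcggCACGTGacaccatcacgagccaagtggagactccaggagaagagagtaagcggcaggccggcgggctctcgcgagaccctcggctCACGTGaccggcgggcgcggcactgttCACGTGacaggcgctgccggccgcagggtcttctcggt
It holds 5 copies, none overlapping another. Of 27457 rat promoters 5.79% hold at least 1 copy and 0.0219% at least 4. The shares are 8.94% and 0.0839% for the 5963 promoters of genes compared. Among the lysosomal genes, 7 of the 32 with a promoter in the table (21.9%) held the motif. Those 7 had a median log2 difference of -0.055 with 3 of 7 higher, and the 25 without it a median of 0.23 with 19 higher. Lamp1 itself was at 0.36, and Ctsl and Gm2a held no copy in this window. The factor Mitf was at 0.50.

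Of 17 S100 and annexin genes, which bind calcium, 12 were higher, 5 by at least 1.5-fold. The 2 lower by as much were S100a8 and S100a9, both counted among the neutrophil markers. Their median was 0.43. Anxa4 measured 895 on control, 1959.7 on downhill and 1881 on uphill, 2.19-fold higher on downhill, S100a6 was at 0.97, Anxa5 at 0.66 and Anxa2 at 0.60. Anxa3 was 2.40-fold higher (293 on control, 704 on downhill and 579 on uphill), although another probe set of it was at -0.48. S100a8 and S100a9, which form calprotectin, were the brightest genes of the lower set. S100a8 measured 11312 on control, 4622 on downhill and 11388 on uphill and S100a9 19855 on control, 9009 on downhill and 17578 on uphill, so that downhill was low and control and uphill were alike.

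Neutrophil markers made up 6 of the 20 genes in the lower set. Of the 8 neutrophil markers counted, 0 were higher and 6 were at least 2-fold lower, with a median of -1.17. Their summed intensity, most of it from S100a8 and S100a9, was 35940.2 on control, 16324 on downhill and 33090.0 on uphill. On uphill their median log2 difference from control was -0.32. Il1r2, a decoy receptor that soaks up interleukin-1, measured 1489.6 on control, 363 on downhill and 1095 on uphill, and the gelatinase Mmp9 370.4 on control, 133 on downhill and 243 on uphill, which was not called present on downhill. The collagenase Mmp8 measured 687 on control, 307 on downhill and 540.1 on uphill and the cathelicidin Camp 459 on control, 203 on downhill and 364 on uphill. Pglyrp1, a granule protein that binds bacterial cell wall, had the largest difference downward at 1254 on control, 206 on downhill and 969 on uphill, which is 6.09-fold lower. It aligned to chromosome 1 (78235474 to 78240704, plus strand) on Rnor3.4. Below the floor, and named after their values were seen, the neutrophil markers Cxcr2 (260.4 on control, 139.8 on downhill and 219 on uphill) and Lcn2 (259 on control, 89.6 on downhill and 214 on uphill) were lowest on downhill as well. Csf3r, the receptor for granulocyte colony-stimulating factor, was nearly level at -0.062.

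Not all granule proteins were lower. Rnase2, a secreted ribonuclease known from eosinophils, measured 84.7 on control, 547 on downhill and 256 on uphill and was 6.46-fold higher. The protease inhibitor Slpi measured 4562 on control, 9795 on downhill and 6973 on uphill, Rnase4 was at 0.94 and lysozyme (Lyz2) at 0.65. Of the 10 granule proteins counted, 5 were at least 1.5-fold higher and 3 lower, and their median of 0.41 turned to -0.062 with no floor on intensity. Basophil and mast cell genes were lower on both running arrays. Their 3 counted markers summed to 1599 on control, 773 on downhill and 529 on uphill. Hdc, which makes histamine, measured 649.6 on control, 243 on downhill and 140.0 on uphill, the protease Mcpt9 414 on control, 236 on downhill and 160.2 on uphill and the transcription factor Gata2 535 on control, 294 on downhill and 228 on uphill. The tryptases Tpsb2 and Tpsab1 and the receptor Kit were called present on no array.

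Secreted mediators of inflammation went both ways within single families, as the plot of mediators shows. Among the CC chemokines, Ccl2, which draws monocytes, measured 184 on control, 765 on downhill and 296 on uphill and was 4.17-fold higher, while Ccl6 (0.48), Ccl4 (0.21), Ccl5 (0.051) and Ccl3 (-0.10) differed by less than 1.5-fold. Among the CXC chemokines the neutrophil attractant Cxcl2 measured 1878 on control, 565 on downhill and 906 on uphill, 3.33-fold lower, and Cxcl3 was at -0.40. Ccr1, a receptor for CC chemokines on monocytes, was 2.28-fold higher (572 on control, 1302 on downhill and 777 on uphill). Ccrl2, which binds chemerin, was at -0.82.

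**Figure D3:**
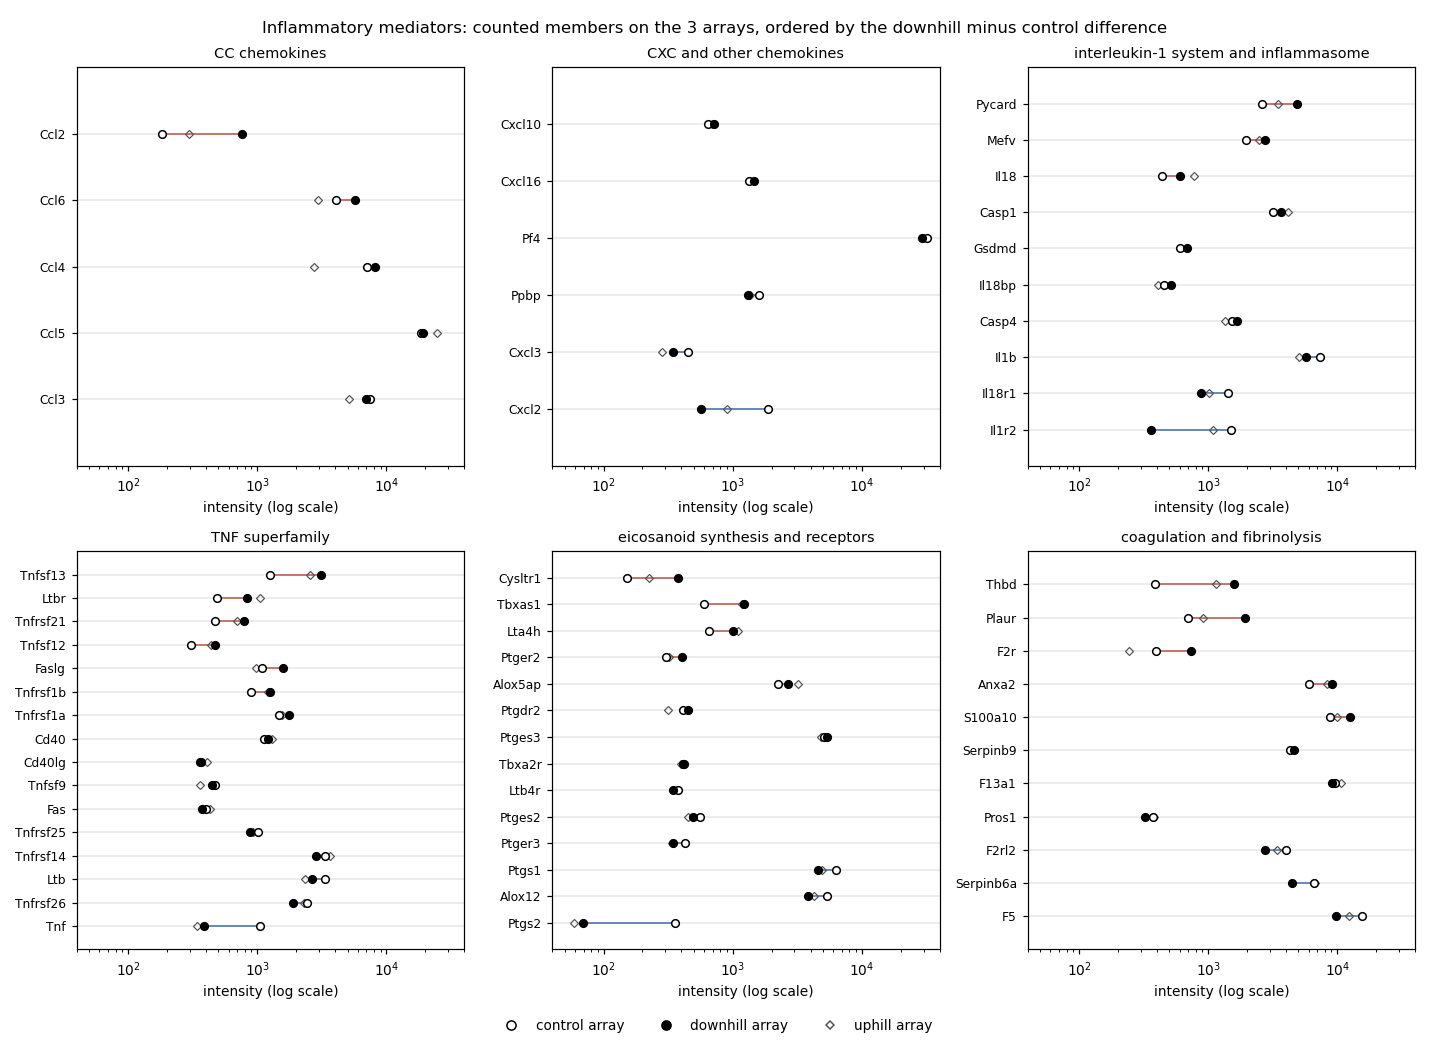
Intensity (log scale) of the counted members of 6 mediator families on the control (open circle), downhill (filled circle) and uphill (diamond) arrays, ordered by the downhill minus control difference. Ccl2 stands at the top of its panel, and Cxcl2, Il1r2, Tnf and Ptgs2 at the bottom of theirs.

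In the interleukin-1 system the inflammasome adaptor Pycard was at 0.90, Mefv at 0.50, Il18 at 0.45 and Casp1 at 0.22. Il1b itself was at -0.35 and the receptor Il18r1 at -0.69. In the TNF superfamily, Tnf measured 1044 on control, 387 on downhill and 342 on uphill and was 2.69-fold lower, but its other probe set was at -0.12. Tnfsf13, a survival factor for B cells and plasma cells, went the other way with 1252 on control, 3088 on downhill and 2544 on uphill. The receptors Ltbr (0.77) and Tnfrsf21 (0.75) and the ligand Tnfsf12 (0.60) were also at least 1.5-fold higher, and lymphotoxin beta (Ltb) was at -0.34.

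Genes that make or sense the lipid mediators of arachidonic acid had a median of 0.023 over 14, with 7 higher and 7 lower. Ptgs2, the inducible prostaglandin synthase, measured 357 on control, 69.7 on downhill and 59.4 on uphill, and its constitutive relative Ptgs1 was at -0.46. Ptgs2 was low on both running arrays. Tbxas1, which makes thromboxane, measured 596 on control, 1215 on downhill and 1169.5 on uphill, or 2.04-fold higher, and Lta4h, which makes leukotriene B4, was at 0.60. Alox12, the platelet lipoxygenase, was at -0.48. Cysltr1, a leukotriene receptor, was brighter on downhill (152 on control, 379.6 on downhill and 224 on uphill), but it was called present on neither array and no fold is given.

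Genes of clotting and its control also split. Thrombomodulin (Thbd), which turns thrombin from clotting to protein C activation, measured 385 on control, 1584 on downhill and 1154 on uphill, and was 4.12-fold higher. Plaur, the urokinase receptor, measured 698 on control, 1937 on downhill and 915 on uphill. The thrombin receptor F2r was at 0.90, while factor V (F5) was at -0.67, Serpinb6a at -0.57 and F2rl2 at -0.54. Platelets carry F5, and their 10 markers were all lower on downhill, with a median of -0.31; the part of platelet numbers was not tested. Matrix genes had a median of -0.00015 over 32, with 6 at least 1.5-fold higher and 5 lower. The proteoglycan versican (Vcan) measured 899 on control, 4047 on downhill and 3430.4 on uphill, fibronectin (Fn1) 2200.5 on control, 7564 on downhill and 8023 on uphill and the adhesion protein Tgfbi 1675 on control, 3994 on downhill and 4693 on uphill. The inhibitor Timp2 was at 0.68 and Timp3 at -0.63, the sheddase Adam8 at -0.65 and the proteoglycan Bgn at -0.61. Integrins and other adhesion genes had a median of -0.12, with Cd44 at 0.47, Itgb7 at 0.46 and F11r at -0.59.

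Within the cytoskeleton a few members stood apart from families that differed little. Tubb6, a minor beta tubulin, measured 254 on control, 1036 on downhill and 589 on uphill and was 4.08-fold higher, while the other 5 tubulins lay between -0.33 (Tubb2a) and 0.028 (Tubg1). A dimmer Tubb6 probe set, below the floor on every array, was at 0.07. Of 37 genes in the list of the actin cytoskeleton, which also holds 2 intermediate filament genes, 3 were 1.5-fold higher. These were Capg, which caps actin filaments (0.96), and the intermediate filament genes for vimentin (Vim, 0.65) and lamin A (Lmna, 0.64). For Lmna, leaving out probe sets that may bind several transcripts turned the value to -0.30. At the lower end were gelsolin (Gsn, -0.37), Myh9 (-0.31) and Vcl (-0.30). Tppp3, which bundles microtubules, was at least 3.52-fold higher (287 on control, 1009 on downhill and 509 on uphill), with the control array called absent.

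Among regulators of transcription and signalling, few genes differed 2-fold. Dusp6, which switches off ERK kinases, measured 1614 on control, 4634 on downhill and 3092 on uphill, or 2.87-fold higher, and Dusp22 was at 0.79. In that family, Dusp1 and Dusp5 were at -0.30 and -0.30 and Dusp2 at -0.0053. The family's median of 0.23 over 8 turned to -0.0053 both with no floor and with a higher one. Smad7, which blocks TGF-beta signalling, measured 1188 on control, 2682 on downhill and 1159.8 on uphill, high on downhill alone, but its other probe set was at 0.18. The Kruppel-like factors Klf10 (0.88) and Klf4 (0.82), the latter known in monocyte maturation, and the lineage factors Id3 (0.90) and Irf5 (0.67) were at least 1.5-fold higher. Gata3 (-0.42), a T cell factor, and Bcl6 (-0.39) were at the lower end.

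Early response genes, which are switched on within minutes of a stimulus, had a median of -0.082 over 26, with 1 member 1.5-fold higher (Gadd45g, 0.67) and 4 lower. The 4 were Nr4a2 (-0.64), Jun (-0.62), Gadd45a (-0.59) and Ier3 (-0.59). The AP-1 subunit Fosb was at 0.014 on downhill and -2.55 on uphill. NF-kB subunits and their inhibitors were lower for 14 of 18, with a median of -0.14, and Map3k14 (-0.53), Tank (-0.51) and Nfkbid (-0.49) were lowest. Of these 18 genes 0 lay beyond 1.5-fold, against 5.7% of all genes compared. JAK-STAT genes were lower for 9 of 12, led by Jak2 (-0.43) and Stat5b (-0.36), and protein tyrosine phosphatases for 13 of 19, while Ptpro was the highest of these (0.72). Interferon-response genes had 15 of 23 higher, with Usp18 (0.56) and Irf7 (0.49) at the top and Rsad2 (-0.64) at the bottom. Clock genes were mixed, as Dbp (0.51) and Bhlhe40 (0.49) were higher and Cry1 (-0.55) and Nr1d1 (-0.53) lower.

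Glucocorticoids are released during exercise, and their targets were spread over both directions with a median of 0.055 over 18. Thbd (2.04), Mt2A (1.71) and Mt1 (1.23) were at least 2-fold higher and Il1r2 (-2.04) was lower by as much. The annexin Anxa1 was at 0.43, Errfi1 at 0.38 and Ddit4 at -0.63. The common indicators Tsc22d3 and Fkbp5 were at 0.15 and -0.058, and the receptor Nr3c1 at 0.021. Adrenaline signalling genes had a median of -0.10, with 0 of 17 differing 1.5-fold, against 5.7% of all genes compared.

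The metallothioneins, small proteins that bind zinc and copper, were the members of the metal list that differed 2-fold. Mt2A measured 577 on control, 1889 on downhill and 1421 on uphill and Mt1 284 on control, 667 on downhill and 406 on uphill, so that downhill was highest, uphill between and control lowest. They were 3.27-fold higher and 2.35-fold higher. Metallothionein genes are switched on by the zinc sensor MTF1 through metal response elements with the core TGCACNC or TGCGCNC. The 250 bases before each start are shown for both genes (RefSeq, GRCr8, minus strand), with each core match on either strand in capitals, at chr19:10832976-10833225 for Mt1 and chr19:10838709-10838958 for Mt2A.
Mt1: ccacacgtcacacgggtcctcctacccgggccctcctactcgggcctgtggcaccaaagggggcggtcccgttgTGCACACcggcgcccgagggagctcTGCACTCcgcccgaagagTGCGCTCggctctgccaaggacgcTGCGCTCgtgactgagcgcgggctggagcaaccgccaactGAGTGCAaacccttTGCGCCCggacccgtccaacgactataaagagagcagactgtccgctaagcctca
Mt2A: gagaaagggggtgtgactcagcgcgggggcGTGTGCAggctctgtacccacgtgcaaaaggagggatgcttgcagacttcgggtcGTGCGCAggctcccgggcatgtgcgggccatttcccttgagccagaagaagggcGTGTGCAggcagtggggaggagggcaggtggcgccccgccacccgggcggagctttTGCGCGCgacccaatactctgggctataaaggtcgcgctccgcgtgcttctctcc
The Mt1 window holds 6 matches and that of Mt2A 4, none overlapping another. Of all 27457 promoters 21.2% hold at least 1 match and 0.277% at least 4, and of the 5963 promoters of genes compared 32.3% and 0.553%. The Mt2A window also holds 1 CACGTG, outside the matches. Mtf1 itself was at -0.0066. The zinc exporters of the Slc30 family and importers of the Slc39 family differed less, from Slc30a6 (0.35) and Slc30a4 (0.29) to Slc39a6 (-0.53) and Slc39a10 (-0.62).

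Enzymes that remove oxidants had a median of 0.21 over 32. Peroxiredoxin Prdx5 measured 3745 on control, 7534 on downhill and 6541 on uphill, 2.01-fold higher, and the methionine sulfoxide reductase Msrb1 (0.92), haem oxygenase Hmox1 (0.87), Mgst1 (0.73) and Gpx1 (0.67) were at least 1.5-fold higher. Gpx3, the plasma glutathione peroxidase, was at -0.71. Haptoglobin (Hp), which binds free haemoglobin, was at 0.59, and the transferrin receptor Tfrc at -0.32.

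Lipid storage genes had a median of -0.066 over 15, with 2 at least 1.5-fold higher and 1 lower by as much. Plin2, which coats lipid droplets, measured 1227 on control, 3739 on downhill and 1593 on uphill, highest on downhill with uphill between. It was 3.05-fold higher on downhill than on control. The fatty acid carrier Fabp5 measured 425 on control, 877 on downhill and 482 on uphill. Dgat2, which makes triglyceride, measured 615 on control, 205 on downhill and 455 on uphill, lowest on downhill, with another probe set at -1.39, while Dgat1 was at 0.46. The coat gene Plin4 was at -0.0052. Fatty acid oxidation genes were higher for 20 of 24, by small amounts with a median of 0.14, led by Acaa2 (0.63), the gatekeeper Cpt1a (0.48) and Echs1 (0.43). Cholesterol synthesis was level by its median of 0.00071, with 0 of 21 genes beyond 1.5-fold, against 5.7% of all genes compared.

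Ass1, which joins citrulline and aspartate on the way to arginine, measured 189.7 on control, 694 on downhill and 497 on uphill and was 3.66-fold higher. Its partner Asl was at 0.39, and the polyamine enzymes Amd1 (-0.47) and Odc1 (-0.24) were lower. Glycolysis had a median of -0.039, with Ldhb (0.51), the glucose carrier Slc2a1 (0.50) and the lactate carrier Slc16a3 (0.47) highest. In the pentose phosphate pathway Taldo1 (0.53), Tkt (0.48) and Pgd (0.44) were higher. Malic enzyme (Me1), kept in that list though not a step of the pathway, was at -0.91. Solute carriers had 8 of 96 at least 1.5-fold lower and 3 higher, from Slc22a23 (-0.84) and the monoamine carrier Slc18a2 (-0.74) to the inositol carrier Slc5a3 (0.87).

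Mitochondrial and protein-making machinery differed by small amounts that most members of several lists shared. Of 70 mitochondrial ribosome genes, 66 were higher, with a median of 0.33, and 4 reached 1.5-fold. Mrpl54 (0.82), Mrpl33 (0.67) and Mrpl52 (0.64) led, and Mrps27 (-0.60) was lowest. By respiratory complex, the medians were 0.35 for complex I (28 of 31 higher), 0.18 for complex II (5 of 6), 0.26 for complex III (8 of 8), 0.19 for complex IV (8 of 8) and 0.24 for ATP synthase (13 of 14). Complex I was led by Ndufv2 (0.71) and Ndufa5 (0.58), and its peripheral arm gene Ndufs1 was at -0.13. The inhibitor of ATP synthase, Atp5if1, was the member that was lower (-0.21). The citrate cycle had a median of 0.13, led by Idh2 (0.57), and carriers and import genes 0.075, where the small import chaperones Timm8b (0.46) and Timm10 (0.43) were near the top and the calcium-sensitive carrier Slc25a25 (-0.77) lowest.

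**Figure D4:**
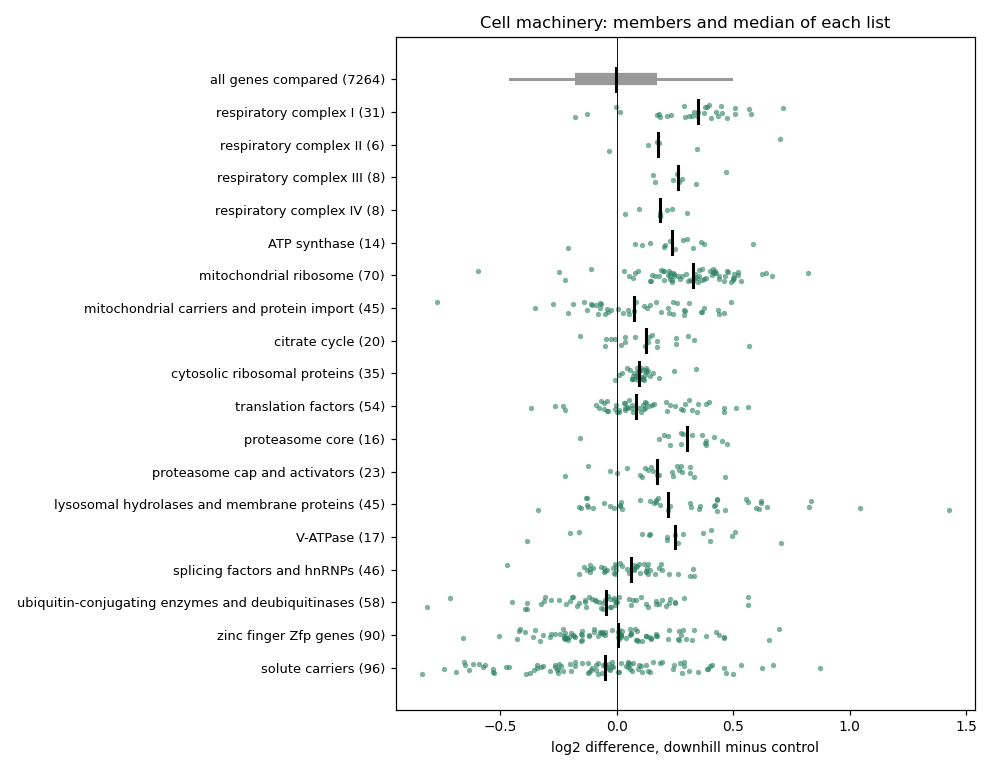
Log2 difference, downhill minus control, of the counted members (dots) and the median (bar) of 18 gene lists, with the number of members in brackets. The grey bar for all 7264 genes spans the 25th to 75th percentile and its thin line the 5th to 95th; complex I, the mitochondrial ribosome and the proteasome core have medians above 0.30.

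The proteasome core had 15 of 16 subunits higher with a median of 0.30. Psmb3 (0.47), Psma4 (0.45) and Psmb7 (0.42) were highest, and Psmb8, an immunoproteasome subunit, was the member that was lower (-0.16). The cap had a median of 0.17 and cytosolic ribosomal proteins 0.097, 34 of 35 of them higher. Enzymes that attach or remove ubiquitin did not share this, with a median of -0.045 and 21 of 58 higher. Splicing factors (0.062), chaperones (0.090) and zinc finger genes (0.0055, 90 genes) lay nearer 0. The medians above 0.3 are about the size of the difference in the E. coli spike-in transcripts and larger than those of the B. subtilis and P1 ones, and the actin 3′ to 5′ ratio was higher on downhill. Median log2 difference also moved with brightness, from -0.06 in the dimmest 1453 genes to 0.033 in the brightest 1453. The part of these in the results on mitochondria and proteasomes was not tested. Nor was it tested for lists with smaller medians, among them the MHC class II, complement, lysosomal, V-ATPase and NF-kB genes.

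Secretory protein folding leaned upward by small amounts, with 24 of 33 genes higher and a median of 0.14. Xbp1 (0.69), P4hb (0.57) and Manf (0.53) led it, whereas the stress factors Atf4 and Ddit3 were at 0.0021 and -0.073. Rab proteins, which direct vesicles, had a median of -0.027, but Rab32, known from lysosome-related organelles, measured 374 on control, 817 on downhill and 611 on uphill. Rab20, a phagosome protein, was at 0.85. Cell cycle genes (-0.012) and Bcl-2 family genes (-0.020) were level, with Rrm2 (-0.63) and Ccnd2 (-0.57) the lowest of the first and Bcl2l1 (-0.52) and Bid (-0.46) at the lower end of the second. Histone genes had a median of -0.19, with the replication-independent linker H1f0 the highest (0.84). The plot of families places each list beside the others.

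**Figure D5:**
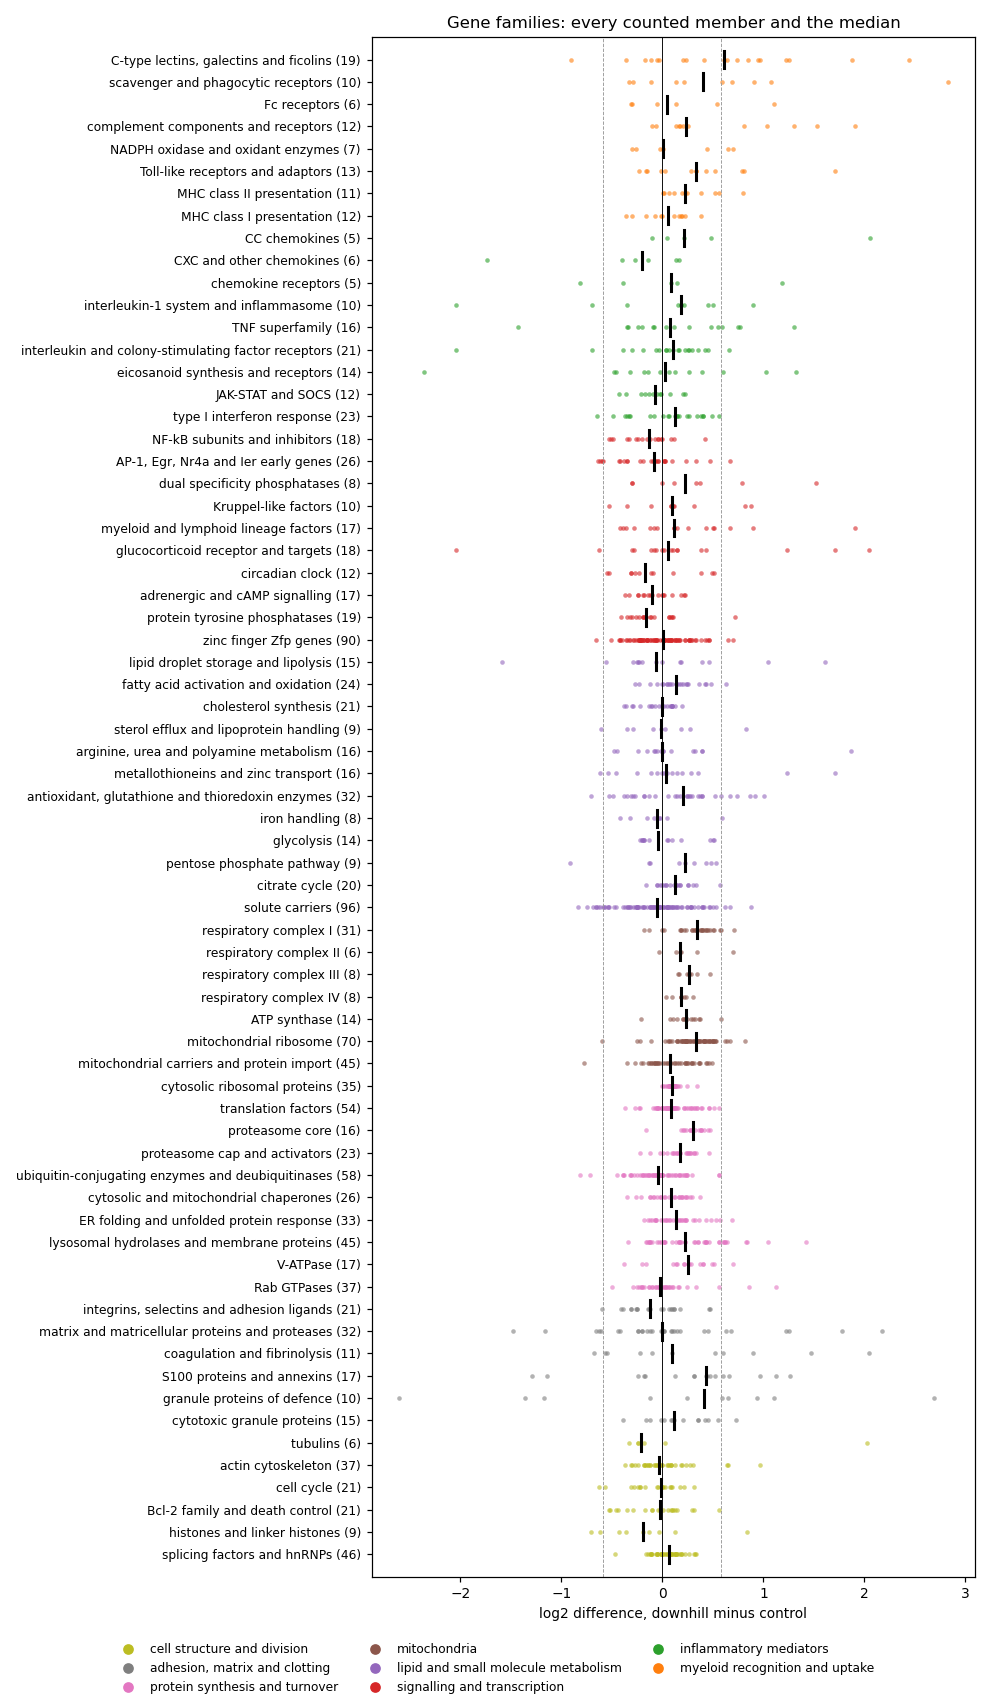
Log2 difference, downhill minus control, of every counted member (dots, coloured by theme) and the median (black bar) of 68 gene families, with the number of members in brackets and dashed lines at 1.5-fold. Lectins, scavenger receptors, S100 proteins and annexins, complex I and the mitochondrial ribosome have medians to the right of 0, and the NF-kB and tyrosine phosphatase families have medians to the left.

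Of the genes that differed 2-fold, 22 higher and 7 lower stood in no list. Several are known from myeloid cells. Mnda, an interferon-inducible nuclear protein of myeloid cells, measured 978 on control, 2689.6 on downhill and 1169 on uphill, and Aif1, an actin-binding protein that marks macrophages, 2173 on control, 4837 on downhill and 3043 on uphill. The inhibitory receptor Cd300a measured 667 on control, 1538 on downhill and 1083 on uphill and the membrane protein Ly6c 4774 on control, 9902 on downhill and 7754 on uphill, a gene of a family whose close copies the probe set may not separate. Uphill lay between control and downhill for each of them. Ms4a6a was at 1.19, and Arl11, a small GTPase, at 1.33.

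The others have mixed roles. Sulf2, which trims sulfate from heparan chains, measured 555 on control, 1359 on downhill and 1468 on uphill, and Gyg1, the primer of glycogen, 1524 on control, 3246 on downhill and 3025 on uphill. Both running arrays were above control for these. Mitochondrial genes among them were Mcub, an inhibitory subunit of the calcium uniporter (406 on control, 886 on downhill and 525 on uphill), the inner membrane protease Oma1 (209 on control, 429 on downhill and 323 on uphill) and the proline dehydrogenase Prodh, at least 2.00-fold higher (238 on control, 476 on downhill and 395 on uphill). Hebp1, which binds haem, was at 1.24, Popdc2, which binds cAMP, at 1.24, the RNA-binding protein Rbm47 at 1.06, Niban2 at 1.47, the folate hydrolase Ggh at 1.05, the sugar kinase Fggy at 1.16, Cttnbp2nl at 1.04 and LOC100911671, given no role in the files, at 1.20. Frmd4b measured 294 on control, 691 on downhill and 229.9 on uphill and was high on downhill alone.

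On the lower side, Crim1, a membrane protein that binds bone morphogenetic proteins, measured 1629 on control, 799 on downhill and 879 on uphill. Dnase2b, an acid nuclease, measured 613 on control, 281 on downhill and 118 on uphill, lowest on uphill. Asb11 was at -1.02, the Arf regulator Asap2 at -1.02 and the kinase Cdk12 at -1.07. Retnla, a resistin-like secreted protein, was 2.57-fold lower (1162 on control, 452 on downhill and 831 on uphill). The growth factor Mdk (549 on control, 253 on downhill and 391 on uphill) and the alpha globin Hba-a3 (1548 on control, 772 on downhill and 11906 on uphill) were not called present on control, so no fold is given for them.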

How the data were processed

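The deposited matrix holds an intensity per probe set and array that the authors made with RMA, per the submitters' processing notes, a method that corrects background, normalizes between arrays and summarises probe sets, and a present, marginal or absent call, per the file headers. No software version is stated. Deposited intensity values are linear, from 1 to 34067, and the differences here are log2 ratios computed from them with no offset. A further deposited value table held the same values within 1e-06 in all 93297 cells and was not used. Biotin-labelled RNA was made from 100 ng of total RNA of cells from 2 ml of a mixture of unstated makeup.

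Of 31099 probe sets, 19628 carried 1 gene symbol, 800 several and 10671 none. Symbols of 19192 were matched through Entrez numbers to the RefSeq table of assembly GRCr8, for names only, and alignments are those of the file (Rnor3.4). The brightest probe set, by its mean over all 3 arrays, represented each gene, and a gene was compared where its brighter array reached the median of all gene values. A fold is a lower bound if the dimmer array lacked a present call, and none is given if the brighter array lacked one. With 1 array a group no test was made, and depth has no meaning here: the number of arrays limits the precision. Counts are at 2-fold for genes and 1.5-fold for list members, and a list is described by its counts and median beside those of all genes.

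The comparison, its members and the 80 lists (12 of cell markers, 68 families) were chosen with earlier results of these data known. Named are genes that differed 2-fold and, of each list, the first 3 members above the floor and up to 8 with the largest difference. Atp5if1, Atp6v0e1, Bgn, C3ar1, Cd302, Clec12a, Clec7a, Dab2, Gas6, Irak2, Irak3, Ltb, Myd88, Neu1, Plin4, Spn, Timp3, Traf6 and markers below the floor were named after their values were seen. A few of these genes are not reported here. Promoters were the 250 bases before the start in RefSeq (GRCr8), 1 per gene. The calculation was tested on simulated data. Alternatives were leaving out the floor, raising it to the 75th percentile (964), genes present on both arrays, quantile normalization, centring on the median, an offset of 50, the mean of probe sets and probe sets without possible cross-binding. Python 3.11.15, numpy 2.4.6 and pandas 2.3.3 were used.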

Additional observations from a re-analysis of the deposited data

Results flagged for a closer look

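Signals in rows of the array that name no gene or several genes lie outside the counts above. Of 2918 such rows bright enough to compare, 23 were at least 2-fold higher and called present on downhill. Another 14 were at least 2-fold lower and called present on control. Among the 7264 named genes, counted whatever their calls, 60 (0.826%) were 2-fold higher and 20 (0.275%) lower. The largest difference among these rows belonged to the row shared by LOC688090 and RT1-Bb, an MHC class II chain, at 44.96 on control, 2871 on downhill and 2894 on uphill, which is a log2 difference of 5.997 (uphill 6.008). It aligned to chromosome 20 (4730560 to 4736179, minus strand) of Rnor3.4, and it was called present on all 3 arrays. The next was a row with no symbol on the same chromosome (3199799 to 3536171, minus strand), with a log2 difference of 4.202 (138.4 on control, 2547 on downhill and 2039 on uphill).

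For 5 genes the downhill and uphill arrays lay on opposite sides of the control array they share, each by at least 1.5-fold and with the brighter of the control and downhill arrays called present, and the difference between the runs was not tested. The thrombin receptor F2r was at 0.8982 on downhill and -0.7136 on uphill, the Notch target Hes1 at 0.8889 and -0.9594, the RNA-binding protein Mex3b at 0.8777 and -0.6896, and the cell cycle regulator Rgcc at 0.7346 and -0.8447. In the other direction, the antiviral gene Rsad2 was at -0.6436 on downhill and 2.71 on uphill.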

How the results depend on the processing

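No paired analysis was possible because there is 1 array a group and the labels give no shared replicate numbers. Of 32 counts recomputed under 8 alternatives, 27 stayed within 1.5 times the reported count. Genes at least 2-fold lower, 20 as reported, numbered 33 with no floor and 10 with the floor at the 75th percentile. Genes at least 1.5-fold higher (242) numbered 161 with that higher floor, and genes at least 1.5-fold lower (172) numbered 282 with no floor and 76 with the higher one. Genes at least 2-fold higher (60) ranged from 41 to 75. Fewer or more genes enter under another floor. The median of the dual specificity phosphatases was reversed to -0.0053 with no floor and with the higher floor, and that of the granule proteins to -0.062 with no floor. Lmna was reversed to -0.30 when probe sets with possible cross-binding were left out. The cause was not tested. Of the other values recomputed, 5105 for single genes and 605 list medians moved by less than the median gap between probe sets of a gene, and 73 and 30 moved by more without changing sign. Centring on the median left every count within 1.5 times.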

Other observations

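Rows with no symbol were placed by their alignment on Rnor3.4, and 19 of those that differed 2-fold lay on the same strand within 5000 bases of a named gene or overlapped one. They are listed because 3′ arrays often carry a gene's far 3′ end as a separate row, and all were chosen after their values were seen. Beyond the 3′ end of Rab32 (140 bases) such a row was 2.01-fold higher on downhill, against a log2 difference of 1.13 for Rab32 itself. A row 1160 bases beyond Rbm47 was 2.43-fold higher, where Rbm47 was at 1.06. A row 459 bases beyond Dab2, an endocytic adaptor, was at least 2.02-fold higher, with the control array called absent, and Dab2 was at 0.97. For Crim1 the rows 257 and 1801 bases beyond its 3′ end were at -1.76 and -1.05 on the log2 scale, and Crim1 was at -1.03. In these cases the row and the named gene differed in the same direction.

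Other placed rows belong near genes whose own probe set was too dim to compare or differed less. The rows 610 and 1010 bases beyond the 3′ end of Cebpa, a transcription factor of myeloid cells, measured 449 and 405 on control, 955 and 847 on downhill and 908 and 841 on uphill. A row 177 bases beyond Jdp2, an AP-1 repressor, was 2.15-fold higher. A row 3756 bases beyond Bcl2l11, a death-promoting protein, was 2.18-fold higher while Bcl2l11 was at -0.29. A row inside Dusp5 was 2.44-fold lower while Dusp5 was at -0.30, and a row 1467 bases beyond the glucose carrier Slc2a3 was 2.07-fold lower.

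Of the 23 higher rows, 4 carried several symbols, 1 of them the row of LOC688090 and RT1-Bb. A row shared by Mt1a and Ttr, aligned to chromosome 17, measured 2185 on control, 4699 on downhill and 3157 on uphill. The row shared by Fcgr2a and Fcgr2b, low-affinity antibody receptors, measured 1944, 3977 and 3784, and that of Lilrb3l, an inhibitory receptor of myeloid cells, 1473, 2955 and 2589. Of the 23, 3 aligned to chromosome 20.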
